A study of Mus musculus with 12 samples.

Results

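Integrins are cell surface receptors built from 1 alpha and 1 beta subunit, and 10 of their subunit genes are described here in migrating mouse mammary epithelial cells. The genes were chosen by name: Itgb3, Itgav, Itga5, Itgb5 and Itgb6, whose receptors bind fibronectin and vitronectin, Itga3, Itga6 and Itgb4, whose receptors bind laminin, Itgb1, the beta subunit shared by many receptors, and Itga2, the alpha subunit of a collagen receptor. All 10 were found among the 57180 genes of the deposited table, and all 10 passed the filter on low values that left 14426 genes to test. Itga2 passed it only through 4 control libraries, which fixes the direction of its change between the arms, so its values are given but it is left out of the counts and medians below, which cover the other 9.

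An integrin alpha subunit pairs with a beta subunit, and the pair decides which matrix protein is bound: alpha-v pairs with beta-3, beta-5 or beta-6 among others, alpha-5 pairs with beta-1, alpha-3 pairs with beta-1, and alpha-6 pairs with beta-1 or beta-4. The fibronectin and vitronectin receptors recognise an RGD motif in their ligands and link it to actin at focal adhesions. The alpha-6 beta-4 receptor instead links laminin to keratin filaments at hemidesmosomes, the anchors of basal epithelial cells. In the mammary gland, laminin receptors mark basal and myoepithelial cells, and alpha-v beta-3 is known from migrating and invading cells.

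HC11 cells, an immortalized line of mouse mammary epithelial cells, were profiled by stranded mRNA sequencing with Snail1 knocked down or as controls. Snail1, the product of Snai1, is a zinc finger repressor known for its part in epithelial to mesenchymal transition, and the series asks what it does in collective migration. Per the labels, both arms were flow sorted, left overnight to aggregate in medium with 2% serum, EGF and insulin, and put into a migration assay that was sampled at 0 h and at 36 h. The 4 groups were Snail1 knockdown at 0 h (libraries 1, 2 and 3), control at 0 h (1, 2 and 3), Snail1 knockdown at 36 h (1, 2 and 3) and control at 36 h (1, 3 and 4). The labels call the control genotype WT, its titles hold "scr", and neither the agent of the knockdown nor the number of clones is stated. Control 36 h library 4 carries an unexplained "mix" in its title; if that means a pool, control at 36 h holds fewer than 3 independent samples. Whether replicate libraries stem from different cultures is not stated; p-values therefore reflect the spread between libraries, which may be technical.

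Levels are the authors' TPM (a share of each library's transcripts, scaled for gene length), given as mean ± SD over 3 libraries. A change is the difference between 2 groups in mean log2(TPM + 1), which understates the change of genes with low levels. It comes from limma fitted across all genes, a gene was called at a Benjamini-Hochberg adjusted p under 0.05, and sequencing depth is unknown. That fit used 1 spread per gene, shared by the 4 groups. The knockdown 0 h libraries were less alike (median correlation with their own group 0.861 to 0.906) than the other libraries (0.959 to 0.969). The shared spread can thus understate the spread at 0 h and overstate that at 36 h. Fitted with only the groups compared, 16 genes were called at 0 h and 2176 at 36 h, against 2550 and 365. In TPM, fewer cells of a type and less RNA per cell cannot be told apart.

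Snai1 itself was lower in knockdown cells: its change was -0.80 at 0 h (adjusted p = 0.0348), and at 36 h it was -1.55 (adjusted p = 0.0105). Snai1 reached 1 TPM in 6 libraries, all of them control, so like Itga2 it passed the filter only through that arm. This fixes the direction of its change, so the p-values of Snai1 do not check the labels. Snai1 had 0.58, 0.44 and 0.20 TPM in the knockdown at 36 h, against 2.77, 2.69 and 3.92 TPM in control at 36 h, with no overlap at either time. At 0 h the call was lost in 9 alternatives and at 36 h in 4. Knockdown 0 h library 2 stood apart: mitochondrially encoded genes took 13.99% of its TPM, against 1.45% to 6.15% in the other 11 libraries, and ribosomal protein genes took 12.2%, against 3.81% to 5.77%. Knockdown 0 h library 3 had 27715 genes above 0 TPM, against 20932 to 23427 in the other 11. Control 36 h library 3 was the lowest of its group for all 10 integrin subunits. Epithelial markers were present in all 12 libraries; Krt14, a basal keratin, ran from 2206 to 20984 TPM and Epcam from 214 to 1161 TPM.

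The subunits differed widely in level. In control cells at 0 h the order was Itgb1 (339 ± 59.5 TPM), Itgb4 (204 ± 25.5 TPM), Itgb5 (196 ± 31.4 TPM), Itga6 (63.7 ± 4.24 TPM), Itga3 (36.9 ± 4.19 TPM), Itgav (31.0 ± 6.54 TPM), Itgb3 (16.4 ± 4.96 TPM), Itga5 (11.02 ± 0.353 TPM), Itgb6 (3.12 ± 2.73 TPM) and Itga2 (1.28 ± 0.671 TPM). Neighbours in that order overlapped between libraries for Itgb4 and Itgb5, Itga3 and Itgav, Itgb3 and Itga5, and Itgb6 and Itga2. In the knockdown at 0 h Itgb1, Itgb4, Itgb5, Itgav, Itga6 and Itga3 stood in this order with each neighbour overlapping the next, and Itgb3 stood below Itga5 with overlapping libraries. At 36 h Itgb1, Itgb4 and Itgb5 again led in both arms, and Itgb3 was the 9th of 10 in the knockdown and the 7th in control.

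**Figure D1:**
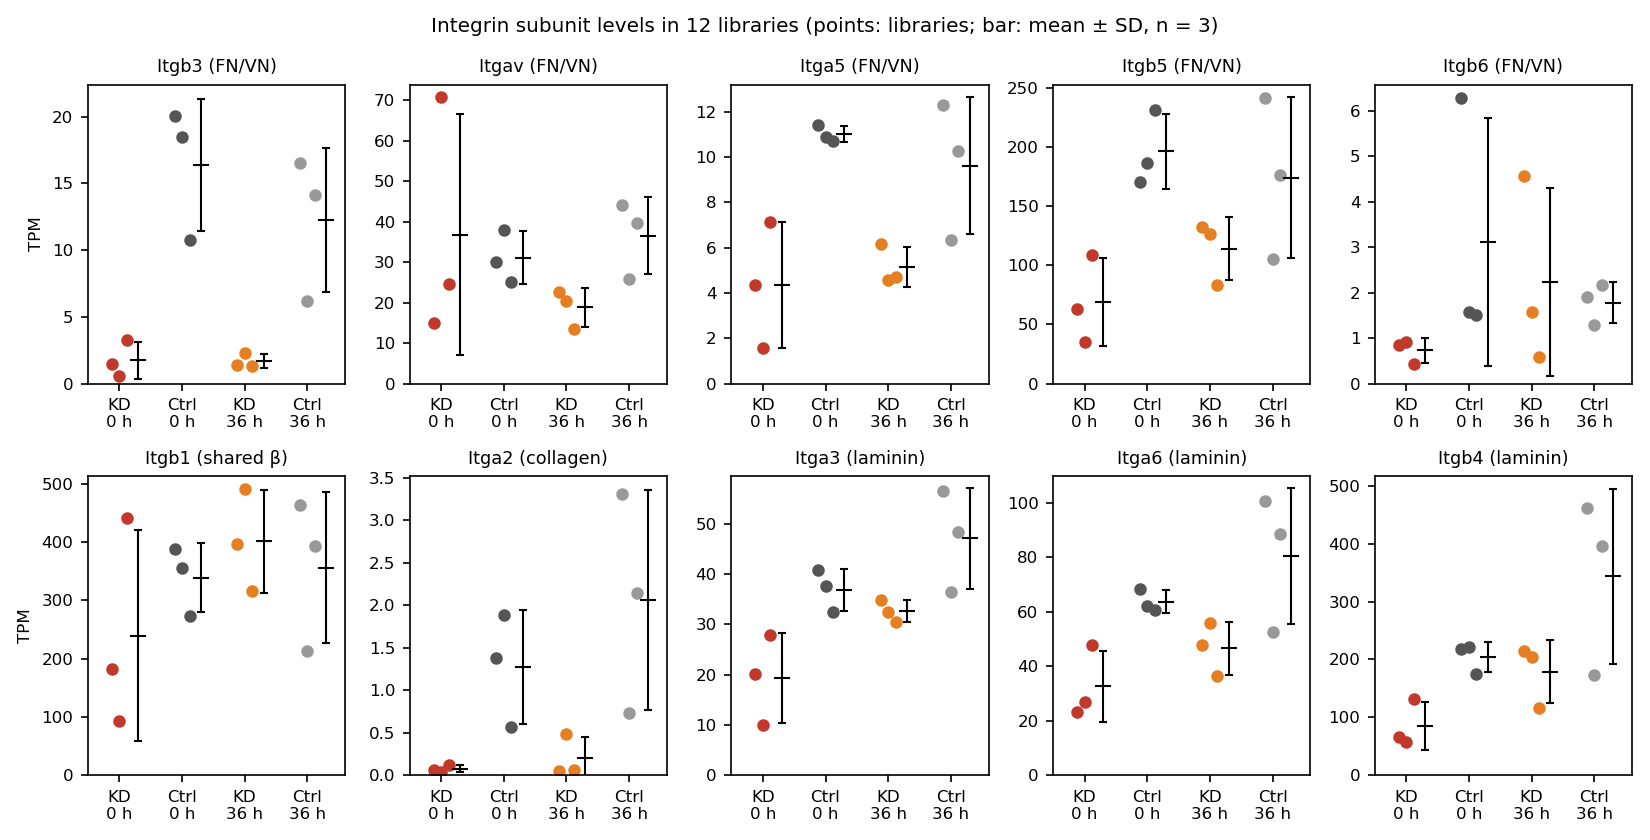
TPM of each of the 10 integrin subunits (vertical axes, each from 0) in the knockdown and control groups at 0 h and 36 h; points are libraries and bars are mean ± SD (n = 3). Itgb3 lies between 0.55 and 3.27 TPM in the 6 knockdown libraries and between 6.19 and 20.02 TPM in the 6 control libraries.

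Snail1 is known to bind the E-box CAGGTG, read as CACCTG on the other strand, so these letters were looked for in the promoters that RefSeq gives on GRCm38.p6, a different build from the one the submitters name. The table held 9 promoters of 7 members (none for Itgb3, Itga6 or Itgb4), each from 250 bases before to 50 bases after the annotated start. The E-box stood in 1 promoter each of Itga3, Itgb5 and Itgb6, 195, 109 and 60 bases before the start, and 20.2% of 32851 mouse promoters of this length held it. The promoters of 3 subunits that were lower in the knockdown at 0 h are shown because they give examples with the E-box (capitals) and without it. Each is printed 5′ to 3′ on the gene's strand: Itga3 at chr11:95076665-95076964 (minus strand), Itgb5 at chr16:33829415-33829714 (plus strand) and Itga5 at chr15:103366742-103367041 (minus strand). A match describes these letters only.
Itga3: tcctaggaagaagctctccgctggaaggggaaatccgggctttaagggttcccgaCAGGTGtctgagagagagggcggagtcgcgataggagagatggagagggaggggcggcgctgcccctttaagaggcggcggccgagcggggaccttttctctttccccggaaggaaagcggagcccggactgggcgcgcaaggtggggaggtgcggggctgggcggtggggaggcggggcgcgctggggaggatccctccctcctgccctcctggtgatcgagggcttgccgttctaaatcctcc
Itgb5: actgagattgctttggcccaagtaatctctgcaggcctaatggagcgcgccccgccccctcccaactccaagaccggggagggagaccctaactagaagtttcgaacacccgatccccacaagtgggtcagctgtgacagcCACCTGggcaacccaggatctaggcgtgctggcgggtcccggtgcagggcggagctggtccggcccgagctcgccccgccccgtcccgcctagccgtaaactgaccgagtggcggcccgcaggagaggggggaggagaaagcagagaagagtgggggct
Itga5: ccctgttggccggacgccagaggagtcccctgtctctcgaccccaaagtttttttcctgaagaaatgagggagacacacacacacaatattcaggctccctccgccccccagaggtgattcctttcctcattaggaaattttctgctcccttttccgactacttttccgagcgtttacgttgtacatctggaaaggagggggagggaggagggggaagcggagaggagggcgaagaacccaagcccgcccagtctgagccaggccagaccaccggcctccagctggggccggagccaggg

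At 0 h, before migration, 6 of the 9 subunits counted were lower in the knockdown and none was higher. They were Itgb3, Itga5 and Itgb5 of the fibronectin and vitronectin binders and all 3 laminin binders. Over all genes tested, 17.7% were called, 14.6% lower (2103 genes) and 3.1% higher (447 genes). The median change was -1.07 over the 9 subunits, -1.32 over the 5 fibronectin and vitronectin binders, -1.01 over the 3 laminin binders and -0.41 over all genes. The -1.07 is the value of Itgb6, which would not have passed the filter on its knockdown libraries alone. With a filter of 5 TPM, which leaves Itgb6 out, the median over 8 subunits was -1.16, and 6 of them and 21.9% of the genes then tested were called. The TPM of the knockdown at 0 h were shifted down for most genes, and the subunits' changes are to be read against the median of all genes. Much of that shift rested on knockdown 0 h library 2. Without that library the median was -0.17 over all genes and -0.91 over the 9 subunits. With median-of-ratios scaling the median of all genes was -0.02, 1115 genes were called higher and 1566 lower, and Itgb3, Itga5, Itgb5 and Itga3 were the 4 subunits still called.

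Itgb3 (ENSMUSG00000020689), the beta subunit of the vitronectin receptor alpha-v beta-3, had the lowest change of the subunits on the log2(TPM + 1) scale. It had 1.45, 0.55 and 3.27 TPM in the knockdown at 0 h, against 20.02, 18.45 and 10.76 TPM in control at 0 h. Every knockdown library lay below every control library, and the knockdown mean (1.76 ± 1.39 TPM) was 10.7% of the control mean (16.4 ± 4.96 TPM). The change was -2.74 (SE 0.422, 95% interval -3.66 to -1.81, adjusted p = 0.00316), the 29th lowest of 14426 genes. The call was lost when only the 6 libraries of 0 h were fitted (adjusted p = 0.0646), the 1 loss among 22 alternatives.

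Itga5 (ENSMUSG00000000555), the alpha subunit of the fibronectin receptor alpha-5 beta-1, had 4.36, 1.58 and 7.14 TPM in the knockdown at 0 h, against 11.41, 10.91 and 10.73 TPM in control. The groups did not overlap, and the change was -1.32 (SE 0.370, adjusted p = 0.0337). Itgb5 (ENSMUSG00000022817), the beta subunit of a second vitronectin receptor with alpha-v, had 63.35, 35.27 and 108.75 TPM in the knockdown, against 170.54, 186.53 and 231.11 TPM in control. Its groups did not overlap either, and the change was -1.62 (SE 0.400, adjusted p = 0.0211).

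Itgav (ENSMUSG00000027087), the alpha-v partner of Itgb3, Itgb5 and Itgb6, was not called at 0 h. It had 14.88, 70.73 and 24.71 TPM in the knockdown, against 30.13, 37.99 and 25.00 TPM in control, a change of -0.04 (95% interval -1.05 to 0.98, adjusted p = 0.959) that was 0.42 with median-of-ratios scaling. The 70.73 TPM came from knockdown 0 h library 2, and without that library the change in Itgav was -0.65 (adjusted p = 0.152). Itgb6 (ENSMUSG00000026971), the beta subunit of an epithelial alpha-v receptor that binds fibronectin and latent TGF-beta, had 0.42 to 0.92 TPM in the knockdown, against 1.52 to 6.28 TPM in control. The Itgb6 groups did not overlap, and the change of -1.07 did not pass (adjusted p = 0.127).

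The 3 laminin-binding subunits were all called lower at 0 h. Itga3 (ENSMUSG00000001507), which pairs with beta-1, had 20.04, 10.05 and 27.81 TPM in the knockdown at 0 h, against 40.76, 37.61 and 32.46 TPM in control, a change of -1.003 (SE 0.313, adjusted p = 0.0476). Itga6 (ENSMUSG00000027111) had 23.32, 26.92 and 47.67 TPM in the knockdown, against 68.54, 62.15 and 60.51 TPM in control, a change of -1.01 (SE 0.310, adjusted p = 0.0455). Itgb4 (ENSMUSG00000020758), the hemidesmosomal beta subunit, had 65.77, 56.96 and 132.23 TPM in the knockdown, against 217.61, 220.59 and 175.07 TPM in control, a change of -1.35 (SE 0.410, adjusted p = 0.0438). In all 3 genes the knockdown libraries lay below the control libraries. All 3 adjusted p-values stand close to the threshold, and with median-of-ratios scaling Itga6 (-0.56, adjusted p = 0.135) and Itgb4 (-0.89, adjusted p = 0.0747) were not called.

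Itgb1 (ENSMUSG00000025809), the shared beta subunit, had 93.57 to 441.99 TPM in the knockdown at 0 h and 272.63 to 387.76 TPM in control. The highest value was that of knockdown 0 h library 3, the groups overlapped, and the change was -0.77 (adjusted p = 0.247). Without that library the change in Itgb1 was -1.35 (adjusted p = 0.0188). Itga2 (ENSMUSG00000015533), which with beta-1 forms a collagen receptor, had 0.06, 0.04 and 0.12 TPM in the knockdown, against 1.38, 1.89 and 0.56 TPM in control. Its groups did not overlap at these low levels, and the change of -1.04 did not pass (adjusted p = 0.0548). By the ratio of means Itga2 was further from control than Itgb3, at 5.74% of control at 0 h and 9.55% at 36 h.

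In 7 of the 9 subunits, all but Itgav and Itgb1, the knockdown libraries at 0 h lay entirely below the control libraries, and 30.7% of all genes tested did so, while 7.24% lay entirely above. The 7 include Itgb6, which stayed under 1 TPM in every knockdown library at 0 h. The count of 6 called subunits depended on single libraries, and so did the share of all genes called. It was 1 without control 0 h library 1, 2 or 3, where 5.27%, 7.05% and 6.5% of all genes were called. It was 2 without control 36 h library 4 (12.2% of all genes) or knockdown 36 h library 2 (12.8%), and 3 without library 1 of the knockdown at 0 h (19.3%) or at 36 h (12.7%). It was 4 without library 2 of the knockdown at 0 h (23.7%) or its library 3 at 36 h (13.4%). It was 4 without control 36 h library 1 (14.2%) and 5 without control 36 h library 3 (16.2%). Leaving out knockdown 0 h library 3 gave 7 (41.1%). Itgb3 was among those called in each of these fits. With no filter 1 subunit was called, and 3.5% of the genes then tested. When only the 6 libraries of 0 h were fitted, 0 subunits and 0.111% of all genes were called.

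**Figure D2:**
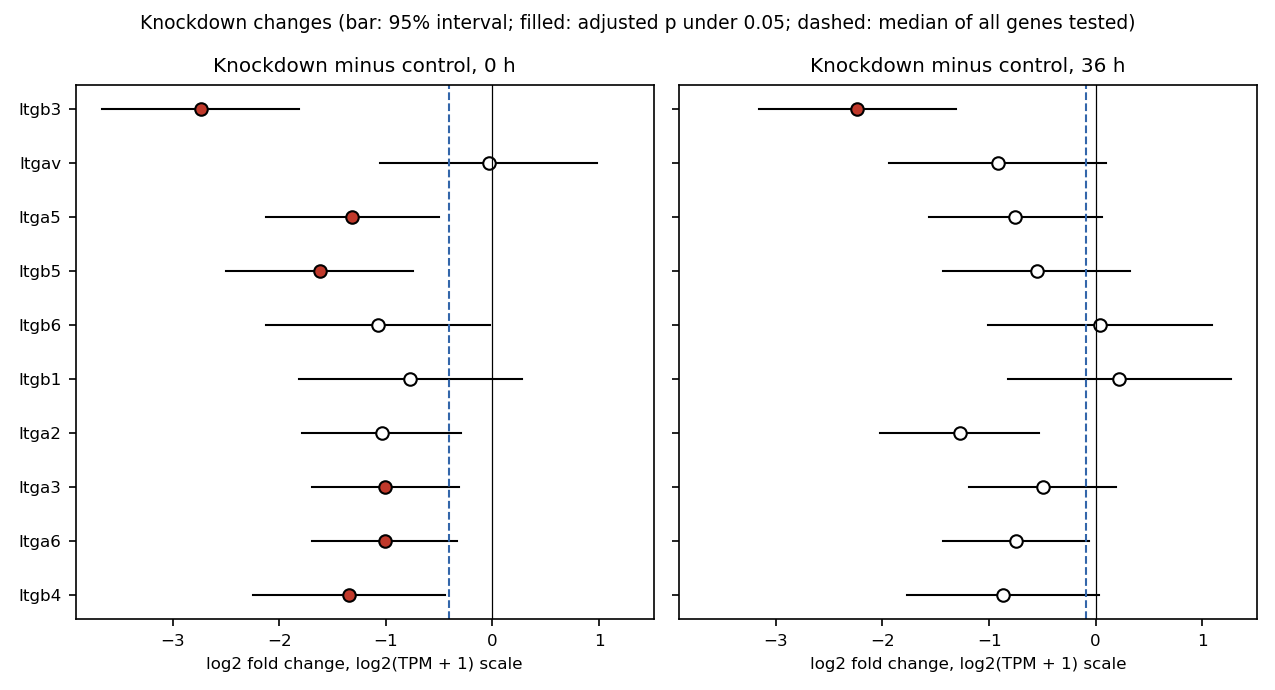
Log2 fold change of each subunit, knockdown minus control, at 0 h (left) and 36 h (right), with its 95% interval; filled points had an adjusted p under 0.05 and the dashed line is the median of all genes tested. Itgb3 lies at -2.74 and -2.24, and the other subunits between -1.62 and 0.22.

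At 36 h Itgb3 was the 1 subunit called, and it was lower in the knockdown. It had 1.39, 2.27 and 1.33 TPM in the knockdown at 36 h, against 16.50, 6.19 and 14.13 TPM in control at 36 h. The groups did not overlap, and the knockdown mean (1.66 ± 0.526 TPM) was 13.6% of the control mean (12.3 ± 5.40 TPM). The change was -2.24 (SE 0.422, 95% interval -3.16 to -1.31, adjusted p = 0.0246), the 28th lowest of 14426 genes. At this time 2.53% of all genes tested were called, 1.64% lower (236 genes) and 0.894% higher (129 genes).

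The 36 h call of Itgb3 was lost in 7 of 22 alternatives. Among those were the fit with no filter (adjusted p = 0.0637) and the fits that left out control 36 h library 1 (0.125), control 36 h library 4 (0.123) or 1 of the 3 knockdown 36 h libraries (0.104, 0.0831 and 0.109). Its change stayed between -2.73 and -1.99 in all 22. The count of called subunits was 0 when any 1 of those 5 libraries was left out, where 0.168% to 0.377% of all genes were called. It was 2 without knockdown 0 h library 2 (Itgb3 and Itgav), where 19% of all genes were called. When only the libraries of 36 h were fitted, Itgb3 was still the 1 subunit called, and 15.1% of all genes were called.

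The alpha-v and alpha-5 subunits lay lower in every knockdown library at 36 h without passing the test. Itgav had 22.55, 20.36 and 13.48 TPM in the knockdown, against 44.15, 25.87 and 39.72 TPM in control, a change of -0.92 (95% interval -1.94 to 0.09, adjusted p = 0.367). Itga5 had 6.15, 4.57 and 4.71 TPM in the knockdown, against 12.29, 6.32 and 10.26 TPM in control, a change of -0.76 (adjusted p = 0.350). Itgb5 had 131.88, 126.60 and 83.52 TPM in the knockdown, against 241.10, 104.98 and 176.08 TPM in control, and its groups overlapped (-0.55, adjusted p = 0.580). Itgb6 was at 2.24 ± 2.07 TPM in the knockdown, against 1.78 ± 0.452 TPM in control, with overlap and a change of 0.04 (95% interval -1.01 to 1.09).

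Among the laminin binders at 36 h, Itga3 had 34.97, 32.46 and 30.53 TPM in the knockdown, against 56.50, 36.53 and 48.48 TPM in control. These did not overlap, and the change was -0.50 (adjusted p = 0.506). Itga6 (-0.75, adjusted p = 0.258) and Itgb4 (-0.87, adjusted p = 0.327) overlapped between the groups through control 36 h library 3, which had 52.58 TPM of Itga6 and 173.02 TPM of Itgb4. The other 2 control libraries had 100.60 and 88.72 TPM of Itga6 and 461.02 and 396.38 TPM of Itgb4, above all 3 knockdown libraries (36.31 to 55.86 TPM and 116.27 to 215.29 TPM).

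Itga2 had 0.05, 0.48 and 0.06 TPM in the knockdown at 36 h, against 3.31, 0.73 and 2.14 TPM in control, with no overlap and a change of -1.28 (adjusted p = 0.0765). Itgb1 was at 401 ± 88.4 TPM in the knockdown, against 356 ± 129 TPM in control (0.22, 95% interval -0.82 to 1.27). Of the 9 subunits counted, 4 (Itgb3, Itgav, Itga5 and Itga3) had every knockdown library below every control library, as did 22% of all genes tested, and no subunit had every knockdown library above, as 14.8% of all genes did. The median change at 36 h was -0.75 over the 9 subunits, -0.76 over the fibronectin and vitronectin binders, -0.75 over the laminin binders and -0.09 over all genes.

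Between 0 h and 36 h no subunit was called in either arm by limma. In the knockdown 1.12% of all genes tested were called (0.998% higher at 36 h and 0.125% lower), and in control 0.36% were (0.25% higher and 0.111% lower). At an unadjusted p under 0.05, 2 subunits (Itga3 and Itgb4) and 16.4% of all genes differed in the knockdown, and 0 subunits and 5.57% of all genes in control. Itga3 in the knockdown was at 32.7 ± 2.23 TPM at 36 h and 19.3 ± 8.90 TPM at 0 h, with every 36 h library above every 0 h library, as in 15% of all genes tested; 3.91% lay entirely below (0.83, adjusted p = 0.252). Itgb4 in the knockdown was at 179 ± 54.2 TPM at 36 h and 85.0 ± 41.2 TPM at 0 h (1.11, adjusted p = 0.248). In control Itgb4 was at 343 ± 151 TPM at 36 h and 204 ± 25.5 TPM at 0 h (0.64, 95% interval -0.27 to 1.54). No subunit in control had every 36 h library above or below every 0 h library, as 9.55% and 12.3% of all genes tested did. Among the 7 epithelial markers, 2 were called higher at 36 h in the knockdown, Krt14 one of them (1.88, adjusted p = 0.0412), and 1 in control; their part in the subunits' values was not tested.

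The median change over time was 0.72 over the 9 subunits in the knockdown, where all genes had a median of 0.33, and 0.01 in control, where all genes had -0.01. In the knockdown it was 0.34 over the fibronectin and vitronectin binders and 0.83 over the laminin binders, and in control -0.24 and 0.33. Without knockdown 0 h library 2 the median of all genes in the knockdown was 0.07, that of the fibronectin and vitronectin binders -0.06 and that of the laminin binders 0.45. Without knockdown 0 h library 3, 3 subunits were called higher at 36 h in the knockdown: Itgb1 (1.59, adjusted p = 0.0376), Itga3 (1.14, adjusted p = 0.0404) and Itgb4 (1.48, adjusted p = 0.0456). In that fit 11% of all genes were called, 1411 of them higher. Median-of-ratios scaling gave the knockdown 175 genes called higher and 56 lower over time, against 144 and 18, and a median of all genes of 0.03.

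The change over time was not shown to differ between the arms for any subunit. The lowest adjusted p of the difference was 0.595, and limma called 0 of 14426 genes there; 766 genes (5.31%), none of them a subunit, had an unadjusted p under 0.05. Since the same contrast also compares the knockdown effect at 36 h with that at 0 h, the larger count at 0 h does not show that the effect on any subunit was smaller at 36 h. For Itgb3 the difference was 0.50 (95% interval -0.81 to 1.81), and for Itgb5 it was 1.07 (-0.17 to 2.31).

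**Figure D3:**
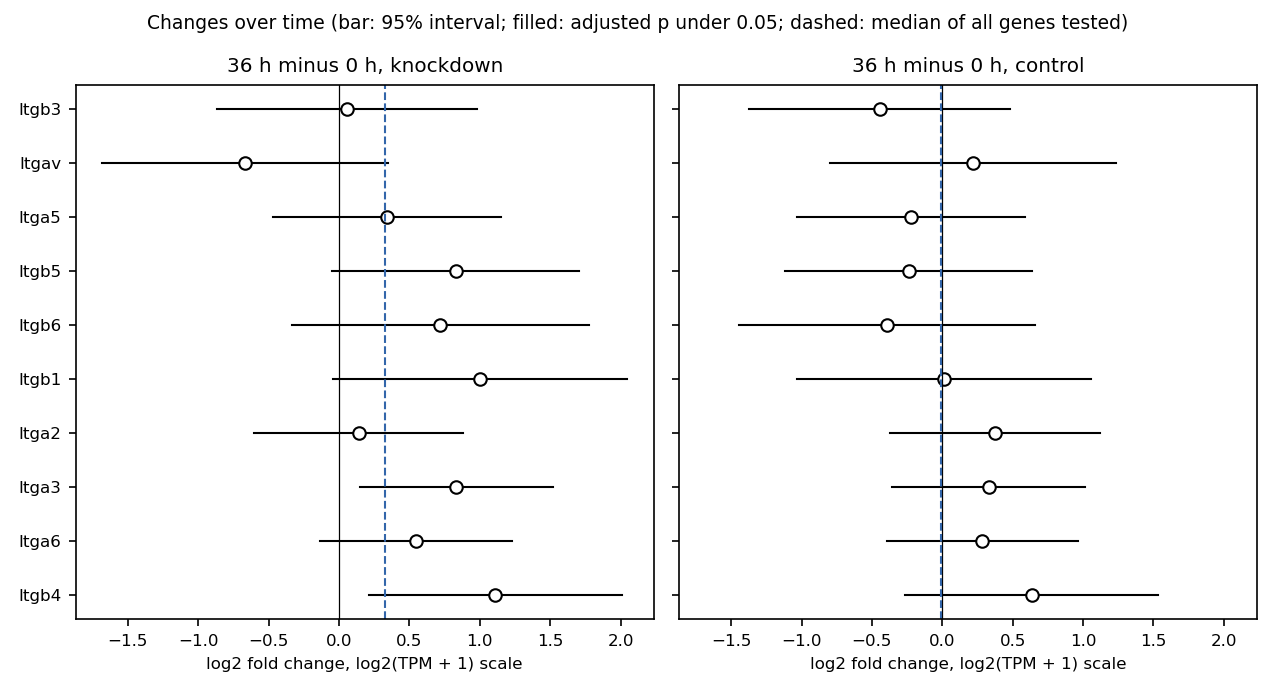
Log2 fold change of each subunit, 36 h minus 0 h, in the knockdown (left) and in control (right), with its 95% interval; open points had an adjusted p of 0.05 or more and the dashed line is the median of all genes tested. The changes run from -0.67 to 1.11 in the knockdown and from -0.45 to 0.64 in control.

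The 2 classes of matrix receptor were then compared within each library, as the mean log2(TPM + 1) of the 5 fibronectin and vitronectin binders minus that of the 3 laminin binders. This balance is a description over chosen genes and was not tested. It was -2.12 ± 0.28 in the knockdown at 0 h, -1.89 ± 0.10 in control at 0 h, -2.70 ± 0.14 in the knockdown at 36 h and -2.52 ± 0.05 in control at 36 h. Between knockdown and control it differed by -0.24 at 0 h and -0.18 at 36 h, and the libraries overlapped at both times. The 0 h difference was -0.37 without knockdown 0 h library 2 and -0.09 without knockdown 0 h library 3, and with a pseudocount of 0.1 the differences were -0.52 and -0.32. Without Itgb3 they were 0.11 and 0.16, so their sign rested on that gene.

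Over time the balance moved toward the laminin binders in both arms. It was lower at 36 h by -0.58 in the knockdown and by -0.63 in control, and in each arm every 36 h library lay below every 0 h library. Without Itgb3 the differences were -0.53 in the knockdown, where libraries then overlapped, and -0.57 in control, where they did not.

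On the TPM scale, where abundant subunits weigh most, the laminin binders held 28.9% ± 2.76 of the summed TPM of the 10 subunits in the knockdown at 0 h and 33.7% ± 0.929 in control at 0 h. They held 32.0% ± 2.25 in the knockdown at 36 h and 44.0% ± 1.63 in control at 36 h. The knockdown libraries lay below the control libraries at both times. In control all 36 h libraries lay above all 0 h libraries, and in the knockdown they overlapped. The fibronectin and vitronectin binders held 25.8% ± 9.72 in the knockdown, against 28.8% ± 4.69 in control at 0 h, with overlap, and 17.7% ± 1.47 in the knockdown, against 22.2% ± 1.36 in control at 36 h, with no overlap. At 36 h both classes thus held a smaller share in the knockdown, and Itgb1 and Itga2 held the rest.

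Ratios between partners lay lower in the knockdown at both times for Itgb3 per Itgav and Itga5 per Itgb1. Itgb3 per Itgav, the partners of alpha-v beta-3, was 0.0792 ± 0.0643 in the knockdown and 0.527 ± 0.122 in control at 0 h, and 0.0906 ± 0.0259 in the knockdown and 0.323 ± 0.0730 in control at 36 h. Itga5 per Itgb1, the partners of alpha-5 beta-1, was 0.0190 ± 0.00431 in the knockdown and 0.0331 ± 0.00541 in control at 0 h, and 0.0132 ± 0.00344 in the knockdown and 0.0275 ± 0.00201 in control at 36 h. For both ratios no knockdown library reached the lowest control library of its time. Itgb5 per Itgav lay below control in the knockdown at 0 h (3.05 ± 2.21 and 6.60 ± 2.32) and above it at 36 h (6.09 ± 0.207 and 4.65 ± 0.726), and knockdown 0 h library 2 gave 0.499.

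**Figure D4:**
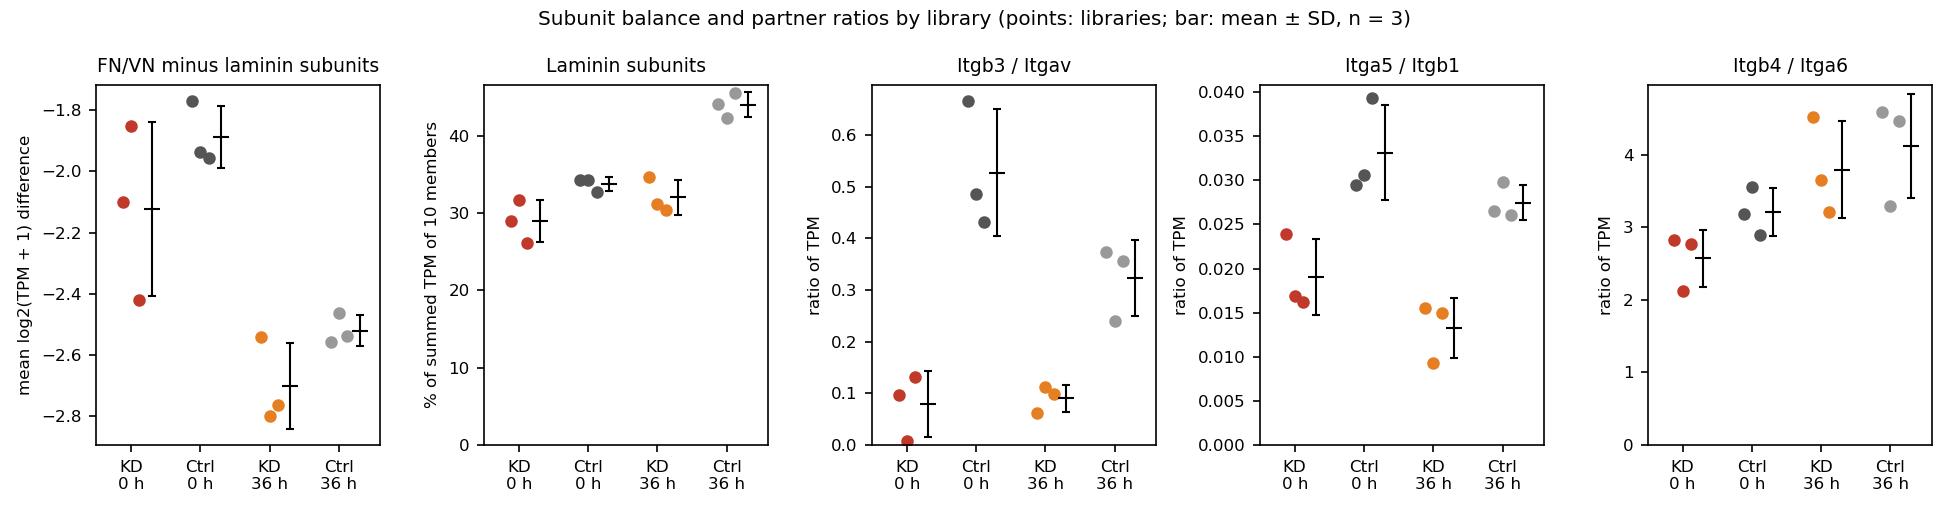
Per library, the balance of fibronectin and vitronectin (FN/VN) against laminin binding subunits, the laminin binders' percentage of the summed TPM, and ratios of TPM between partner subunits, in the knockdown and control groups at 0 h and 36 h; bars are mean ± SD (n = 3). The balance is lower at 36 h in both arms, and Itgb3 per Itgav is lower in the knockdown at 0 h and at 36 h.

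The genes whose profile over the 12 libraries was most like that of Itgb3 were Masp1, D17H6S56E-5, Angptl2, Ano1 and Tgfb3. Likeness was the root mean square difference of centred log2(TPM + 1) values among 9365 named genes averaging 5 TPM or more, predicted genes and pseudogenes left out, and was 0.36, 0.37, 0.37, 0.39 and 0.41. Angptl2, a secreted angiopoietin-like protein, was at 34.5 ± 21.5 TPM in the knockdown, against 237 ± 11.9 TPM in control at 0 h. Ano1, a calcium-activated chloride channel, was at 6.05 ± 4.41 TPM in the knockdown, against 36.3 ± 1.67 TPM in control at 0 h. These genes were picked for this pattern, so no test is given.

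Of the 17 other integrin subunits, 13 were below the filter and 4 were tested. Itga8, an alpha subunit that pairs with beta-1 and binds RGD ligands, was the 1 called at 0 h, with 2.05, 0.91 and 4.45 TPM in the knockdown against 15.32, 15.31 and 17.28 TPM in control (-2.42, adjusted p = 0.00516). None was called at 36 h. Of all genes tested, 14.6% were called lower at 0 h and 1.64% at 36 h. Itgb8, another partner of alpha-v, was at 5.28 ± 2.35 TPM in the knockdown, against 7.71 ± 1.61 TPM in control at 0 h (-0.53, adjusted p = 0.219). Itga2b, the platelet partner of beta-3, ran from 4.6 to 16.65 TPM, with 9.56 ± 6.25 TPM in the knockdown, against 5.12 ± 0.497 TPM in control at 0 h (0.63, adjusted p = 0.197). The other platelet markers were near 0: Pf4, Gp9 and Gp1bb stayed under 1 TPM in all 12 libraries and Ppbp did not exceed 1.12 TPM.

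Among the RGD ligands, 7 of 11 tested genes were lower in the knockdown at 0 h (Tgfb3, Fn1, Edil3, Mfge8, Spp1, Ccn2 and Tgfb1) and none was higher. For comparison, calls at 0 h covered 14.6% (lower) and 3.1% (higher) of the 14426 genes. Fn1, fibronectin, had 27.81, 33.82 and 39.28 TPM in the knockdown against 142.06, 124.40 and 99.49 TPM in control (-1.83, adjusted p = 0.00863). Fn1 was the 1 ligand called at 36 h, at 20.3 ± 5.79 TPM in the knockdown, against 85.4 ± 38.1 TPM in control (-1.94, adjusted p = 0.0230). Of all genes tested, 1.64% were called lower at 36 h. Tgfb3, whose latent form is held by alpha-v receptors, changed by -2.47 at 0 h (adjusted p = 0.00284), and the secreted RGD proteins Edil3 and Mfge8 by -1.71 (adjusted p = 0.0102) and -1.49 (adjusted p = 0.0185). Vtn, vitronectin, was listed at 0 in 11 of 12 libraries. The median change of the list was -1.49 at 0 h and -0.89 at 36 h, beside -0.41 and -0.09 over all genes.

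Among the laminin chains, the ligands of the laminin binders, Lamb3 (-1.87, adjusted p = 0.0771) and Lama3 (-1.48, adjusted p = 0.0601), which encode a beta and an alpha chain, did not pass at 0 h. Lama3 had 4.72, 3.18 and 10.79 TPM in the knockdown at 0 h, against 17.56, 13.98 and 21.22 TPM in control at 0 h, with no overlap. The median change over 8 tested chains was -1.04 at 0 h and -0.24 at 36 h, beside -0.41 and -0.09 over all genes. Of 4 collagens tested, Col1a1 was lower at 0 h (-1.01, adjusted p = 0.0398) and Col3a1 at 36 h (-0.99, adjusted p = 0.0468). At those times 14.6% and 1.64% of all genes were called lower. The median change of the 4 collagens was -0.33 at 0 h and -0.88 at 36 h. Col3a1 passed the filter through 4 libraries, the 3 of control at 36 h among them, and had 0.15 to 0.29 TPM in the knockdown, against 1.25 to 1.56 TPM in control at 36 h. It could not have passed without control at 36 h. This fixes the direction of its change at 36 h, so nothing rests on that call.

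Integrins are activated and tied to actin by adaptor proteins, and 8 of 23 tested genes of that list were lower in the knockdown at 0 h, none higher. Over all genes tested, 14.6% were called lower at 0 h and 3.1% higher. Pxn (paxillin), a focal adhesion scaffold, had 6.64, 6.04 and 14.25 TPM in the knockdown against 39.60, 40.53 and 36.80 TPM in control (-2.09, adjusted p = 0.00396). Lims1 (PINCH1, a partner of ILK) changed by -1.26 (adjusted p = 0.00654), Zyx (zyxin) by -1.26 (adjusted p = 0.0138) and Bcar1 (p130Cas) by -1.72 (adjusted p = 0.0174). Pxn was the 1 member of the list called at 36 h (-1.498, adjusted p = 0.0468), when 1.64% of all genes were called lower. The list median was -0.67 at 0 h and -0.45 at 36 h, beside -0.41 and -0.09 over all genes.

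Of 8 hemidesmosome and tetraspanin partners of the laminin receptors, 3 were lower in the knockdown at 0 h and 1 at 36 h. Of all genes tested, 14.6% and 1.64% were called lower at those times. The median change of the 8 partners was -0.80 at 0 h and -0.43 at 36 h, beside -0.41 and -0.09 over all genes. Cd82, a tetraspanin, was called at both times, with 16.8 ± 7.44 TPM in the knockdown, against 66.2 ± 7.60 TPM in control at 0 h (-2.02, adjusted p = 0.00335), and 27.0 ± 5.57 TPM in the knockdown, against 86.2 ± 7.19 TPM in control at 36 h (-1.65, adjusted p = 0.0255). Col17a1 (-1.62, adjusted p = 0.0206) and Plec (-1.28, adjusted p = 0.0244), a hemidesmosomal collagen and the plakin that links beta-4 to keratin, were called at 0 h. Of the cell type markers that passed the filter (7 of 7 epithelial, 3 of 6 fibroblast, 1 of 5 immune, 1 of 4 endothelial and 1 of 5 platelet), none was called between the arms at 0 h, and at 36 h Col3a1, also a fibroblast marker, was the 1 called. The filter fixed the direction of Col3a1 at 36 h, so nothing rests on that call. No adipocyte marker passed. The summed level of the epithelial markers was 3343 to 10329 TPM in the knockdown, against 10126 to 10342 TPM in control at 0 h, the lowest in knockdown 0 h library 2. At 36 h it was 19533 to 25520 TPM in the knockdown, against 15968 to 18874 TPM in control. Krt14, which reached 20984 TPM, weighed most in the sums at 36 h. The median change of the 7 markers was -0.97 at 0 h and -0.20 at 36 h, beside -0.41 and -0.09 over all genes. The part of the epithelial markers in the subunits' changes was not tested. At 0 h the fibroblast markers summed to 3.38 to 13.43 TPM in the knockdown, against 9.15 to 12.42 TPM in control, the immune markers to 6.64 to 10.63 TPM in the knockdown and 9.93 to 14.65 TPM in control, and the endothelial markers to 0.49 to 3.9 TPM in the knockdown and 2.97 to 3.86 TPM in control. At 36 h the immune markers summed to 2.14 to 2.42 TPM in the knockdown and 3.16 to 3.85 TPM in control. These did not overlap and were lower in the knockdown, as were 22% of all genes tested. Cd68 was the 1 of 5 immune markers that passed the filter, and its change at 36 h (-0.40) was not called. The fibroblast markers summed to 5.66 to 10.15 TPM in the knockdown and 7.59 to 13.78 TPM in control at 36 h, and the endothelial markers to 4.36 to 6.82 TPM in the knockdown and 3.6 to 7.07 TPM in control. The part of these markers in the subunits' changes was not tested either.

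**Figure D5:**
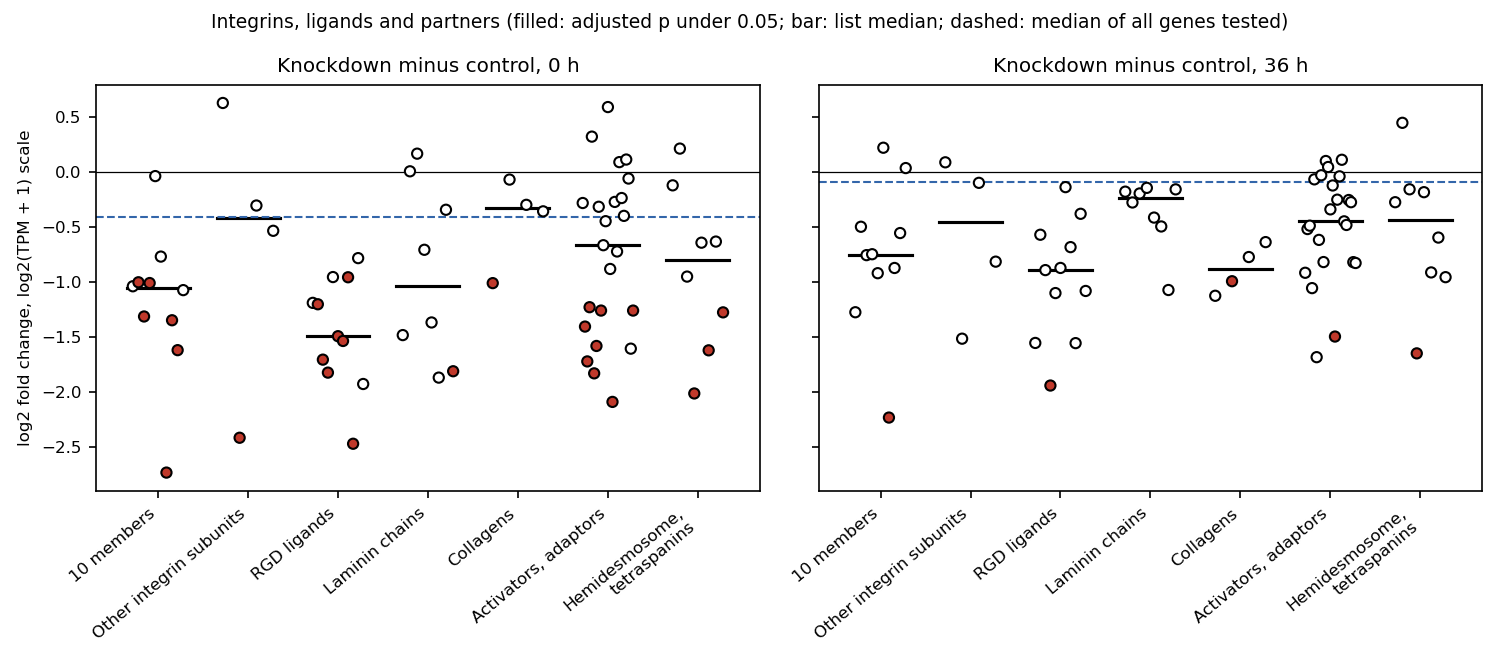
Log2 fold change, knockdown minus control, of the 10 subunits and of the tested genes of 6 lists at 0 h (left) and 36 h (right); each point is a gene, filled where the adjusted p was under 0.05, the bar is the list median (Itga2 included) and the dashed line the median of all genes tested. No filled point lies above 0.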

How the data were processed

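The authors deposited gene-level TPM for 57180 genes in 12 libraries, with their own group means. Per the submitters' processing notes, the build was GRCm39 and the tools named are HISAT2 2.2.1, HTSeq, FastQC, DESeq2 and cutadapt 1.9.1; which of them made the TPM is not given in the sources used here. Recomputed within 1e-04 TPM, the deposited control 36 h mean covers libraries 1 and 3 alone, so the deposited means were not used; 1 further column of values, whose name matches no library, was not used either. TPM carry no depth, so no count model was run and no counting error is given.

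The 14426 genes that reached 1 TPM in 3 or more of the 12 libraries were fitted as log2(TPM + 1) with 1 mean per group in limma 3.58.1 (trend in the variance) under R 4.3.3, which was tested on simulated data. P-values are two-sided and Benjamini-Hochberg adjusted over all genes tested. The members, gene lists, comparisons and settings were chosen with earlier results of these data known. All members, the 5 genes most like Itgb3 and up to 4 called genes per list and comparison are named, and list genes named beyond these were chosen after their values were seen. Alternatives varied the pseudocount, filter, scaling, variance trend, replicate block, libraries fitted and libraries left out. Promoters came from RefSeq on GRCm38.p6; no coordinates of the deposited genes were used. A result for 1 gene of the laminin list is not reported here.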

Additional observations from a re-analysis of the deposited data

How the results depend on the processing

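The subunits' changes were refitted under up to 22 alternatives, and no called change turned its direction. Of 218 refitted values at 0 h, 152 kept their side of the threshold, 61 lost a call and 5 gained one; at 36 h 205 kept it, 7 lost a call and 6 gained one. Over time 218 of 218 kept it in control and 215 in the knockdown, where 3 gained a call. Calls at 0 h were lost in 6 alternatives for Itgb5, 9 for Itga5, 14 for Itgb4, 15 for Itga3 and 16 for Itga6, and in 1 for Itgb3. The 7 calls lost at 36 h were those of Itgb3, 1 of them with the replicate block (adjusted p = 0.292). The cause of these changes was not tested.

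These counts include Itga2. Against 6 subunits called at 0 h, 1 was called with no filter, 1 with the replicate number as a block, 0 with only the groups compared, 2 without knockdown 0 h library 2 and control 36 h library 4, and 1 to 8 when each library was left out. Against 1 at 36 h, 0 were called with no filter, 0 with the replicate block, 4 with median-of-ratios scaling without knockdown 0 h library 2, and 0 to 3 when each library was left out. Over time in the knockdown 0 to 3 were called when each library was left out, against 0.

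Leaving out knockdown 0 h library 2 and control 36 h library 3 together was added after seeing the data, because knockdown 0 h library 2 stood apart and control 36 h library 3 was the lowest of its group for every subunit. That choice follows the outcome measured, so its calls are left out of the counts above and nothing rests on them. It gave 8 subunits called lower at 36 h (all but Itgb1 and Itgb6), with 3098 genes (22% of those tested) called in all, and 7 subunits at 0 h. Genes called over time were then 262 in control and 424 in the knockdown, with 7 for the difference between the arms.

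Of all genes, 2550 were called at 0 h, but 1258 with no filter, 1011 with the replicate block, 16 with only the groups compared and 755 to 5869 when each library was left out. At 36 h 365 were called, but 192 with no filter, 813 with median-of-ratios scaling, 5 with the replicate block, 2176 with only the groups compared, 2702 with median-of-ratios scaling without knockdown 0 h library 2, 1448 without that library and control 36 h library 4, and 24 to 2699 when each library was left out. Over time in control 52 were called, but 85 with median-of-ratios scaling, 6 with the block, 247 with only the groups compared, 382 with median-of-ratios scaling without knockdown 0 h library 2, 160 without that library and control 36 h library 4, and 18 to 401 when each library was left out. In the knockdown 162 were called, but 40 with the block, 18 with only the groups compared, 393 and 258 under those same last settings, and 46 to 1572 when each library was left out. For the difference between the arms 0 were called, but 1 with no filter, 1 with median-of-ratios scaling, 1 with the block, 5 and 8 under those settings, and 0 to 10 when each library was left out.

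Snai1 at 0 h (-0.80) lost its call with no filter (-0.80), median-of-ratios scaling (-0.54), the replicate block (-0.80) and only the groups compared (-0.80), and ranged from -0.93 to -0.64 when each library was left out; at 36 h it lost its call with the block (-1.502) and ranged from -1.64 to -1.42. With a pseudocount of 0.1 the subunit balance differed between knockdown and control by -0.52 at 0 h and -0.32 at 36 h, against -0.24 and -0.18. The replicate numbers showed no clear pairing of the libraries: 2 of 15 same-numbered pairs had deviations correlated over 0.1 (-0.29 to 0.13), against 7 of 39 other pairs. With so few libraries a group, this cannot exclude that same-numbered libraries share a culture or batch. Depth is unknown, so its limit on low levels, such as Itga2, Itgb6 and Itgb3 in the knockdown, cannot be given.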
